A study of Mus musculus with 6 samples.

Results

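The phagocyte NADPH oxidase was followed through 7 genes in peritoneal macrophages (PMs) of lupus-diseased and control mice. The genes were Cybb, Cyba, Ncf1, Ncf4, Rac2, Hvcn1 and Cybc1, taken by name as oxidase subunits and their partners, out of 32879 genes with a RefSeq record in the count files. All 7 passed the low-count filter that left 10505 genes for testing. PMs were sorted from peritoneal washes as F4/80+, CD11b high cells, and 1 stranded mRNA library was made per mouse. The 3 control mice were female [NZW × BALB/c]F1 mice, a non-autoimmune cross, of 33, 33 and 30 weeks. The 3 diseased mice were female [NZB × NZW]F1 (BWF1) mice of 31, 31 and 34 weeks, which develop a lupus-like disease and were taken when they had antibodies against double-stranded DNA and severe proteinuria. NZW is a parent of both crosses, and the other parent differs, so disease and strain background cannot be told apart here. Each library is RNA from bulk sorted cells, in which fewer cells of a type and less RNA per cell cannot be told apart.

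The libraries held 3629901 to 5003360 counts, of which 89.1% to 93.0% fell on records of a known gene. Levels are CPM, a gene's counts scaled to a common library size with TMM factors, and 3 counts corresponded to 0.652 to 0.911 CPM, a floor that covers counting error only. The macrophage label was borne out by Lyz2 (20196 to 40332 CPM), Itgam (5508 to 7276 CPM) and Adgre1 (1846 to 2265 CPM), all over both groups. Gata6, a transcription factor of resident peritoneal macrophages, had 68.5 to 119.7 CPM. Some of the 12 macrophage markers differed in range between the groups, though edgeR called none. Without overlap, diseased mice had lower Adgre1, Icam2, Timd4 (605 to 1002 against 1206 to 1261 CPM) and Cd68 (206 to 330 against 531 to 713 CPM). They had higher Cd14 (577 to 1063 against 297 to 493 CPM) and Prg4. Whether this bears on the oxidase values was not tested. Control mouse 3 stood furthest from the rest, with a median correlation of 0.907 to the other libraries against 0.924 to 0.939 for the others.

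The phagocyte oxidase moves electrons from cytosolic NADPH across a membrane to oxygen and so makes superoxide, which enters the phagosome or leaves the cell. At rest its membrane part, a heterodimer of gp91phox and p22phox, is idle. Upon phagocytosis cytosolic subunits, p47phox and p40phox among them, join it together with a Rac GTPase. Loss of the oxidase causes chronic granulomatous disease, and oxidase deficiency is also known to worsen lupus in mice.

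None of the 7 genes was called different between diseased-BWF1 and control mice. A call required a Benjamini-Hochberg adjusted p under 0.05 in edgeR's quasi-likelihood test and a fold change of at least 1.5, and 1.22% of all genes tested met it, 0.4% higher and 0.819% lower in diseased mice. At an unadjusted p under 0.05, edgeR found 0 of the 7, against 13.2% of all genes, and DESeq2, which called 3.54% of all genes with the fold threshold and 3.76% without it, also called 0. The fitted log2 fold changes ran from -0.19 for Cyba to 0.17 for Ncf1, with a median of 0.06, where the median over all tested genes was 0.01. For 5 of the 7 genes the 95% interval of the fold change lay inside 1.5-fold in both directions, and for Ncf1 and Cybc1 its upper end lay just above 1.5-fold.

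**Figure D1:**
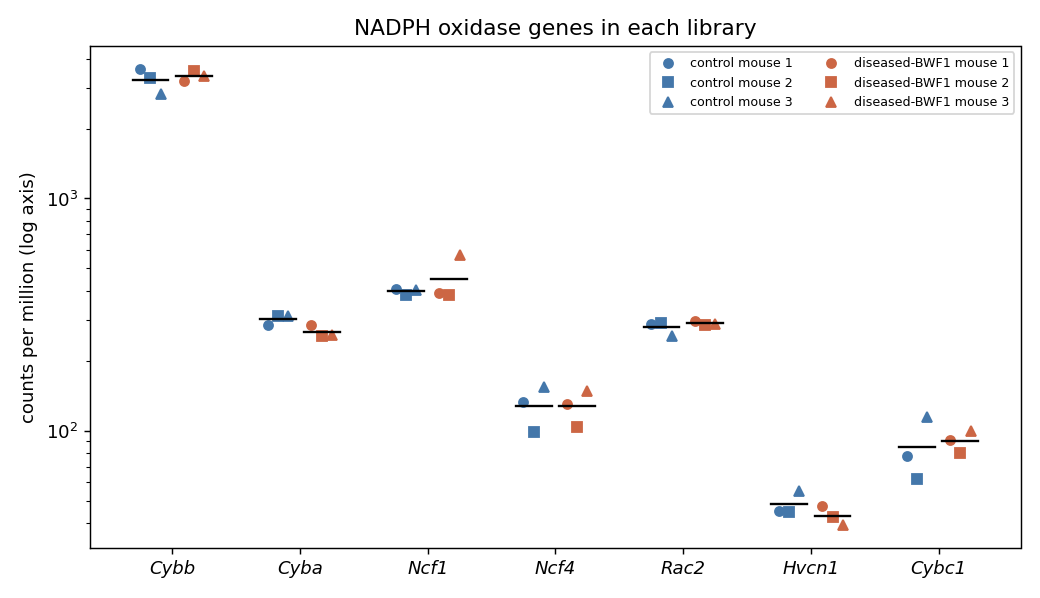
CPM (log axis) of the 7 oxidase genes, with 1 point per mouse, control mice in blue and diseased-BWF1 mice in orange, and a bar at each group mean. The groups overlap for every gene but Cyba, whose diseased mice (254 to 284 CPM) sit just below the control mice (285 to 312 CPM).

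Cybb encodes gp91phox, the catalytic subunit that carries the electrons, and lies on the X chromosome from 9435252 to 9487766 (GRCm38.p6, minus strand). By mean CPM, which is not scaled for transcript length, it ranked 21st of 10505 genes. A rank per length was not computed. Its level was 3619.8, 3295 and 2819.9 CPM in control mice 1 to 3 and 3203, 3538 and 3376 CPM in diseased mice 1 to 3. All diseased mice lay within the range of the control mice, whose lowest value came from mouse 3. The group means were 3245 ± 402 (SD, n = 3) and 3373 ± 167 CPM. edgeR's quasi-likelihood test put the log2 fold change at 0.06 ± 0.15 (SE), with an adjusted p of 0.914, and the interval allowed 0.81-fold to 1.33-fold.

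Cyba encodes p22phox, the partner that gp91phox needs to be stable, and lies on chromosome 8 from 122424771 to 122432940 (minus strand). Control mice had 284.9, 311.8 and 311.7 CPM, and diseased mice had 284.0, 254 and 259 CPM. Every diseased mouse was below every control mouse, by less than 1 CPM between the nearest pair. Such separation in either direction was seen for 20.8% of all genes tested, so 1 of 7 genes is near the background. The fit gave a log2 fold change of -0.19 ± 0.12 (SE) and an adjusted p of 0.576 (edgeR, quasi-likelihood), and the 95% interval ran from 0.721-fold to 1.07-fold. An exact two-sided permutation test gave p = 0.1, the smallest that 3 mice against 3 allow.

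The sequence before the start of these genes is shown because both proteins are needed in the same complex while their mRNAs differ in level. RefSeq promoter windows (GRCm38.p6, 250 bases before to 50 after the start) were given for 4 of the 7 genes. Each line gives the 120 bases before the start on the gene's own strand, at chrX:9469325-9469444 for Cybb and chr8:122432941-122433060 for Cyba. The start used for Cybb lies inside the span of the gene, which reaches 9487766 on the minus strand. Sequence before a start further upstream was not given. Capitals mark a CCAAT box (CCAAT).
Cybb: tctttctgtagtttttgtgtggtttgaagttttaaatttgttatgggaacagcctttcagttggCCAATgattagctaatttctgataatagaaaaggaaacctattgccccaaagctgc
Cyba: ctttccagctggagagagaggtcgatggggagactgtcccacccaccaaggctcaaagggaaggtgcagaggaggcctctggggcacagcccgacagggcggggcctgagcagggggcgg
The CCAAT box of Cybb begins 56 bases before the start, and the core GAGGAA, bound by the myeloid factor PU.1, occurs on the opposite strand from base 10 after the start. Of all windows, 37.4% hold CCAAT and 28.3% hold GAGGAA on either strand. The TATA box TATAAA, held by 13.6% of windows, was in none of the 5 windows of Cybb, Cyba, Ncf1 and Cybc1. The windows of Cyba and Ncf1 held none of these 3 motifs, and those of Cybc1 (2 starts) held CCAAT from base -208 in one and GAGGAA from base -184 in the other. These are matches of letters and were not tested as binding sites.

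Since gp91phox and p22phox pair in the membrane, the ratio of their counts within each library was also compared, which needs no scaling between libraries. There were 12.7, 10.6 and 9.05 Cybb counts per Cyba count in control mice and 11.3, 13.9 and 13.0 in diseased mice. The highest control mouse lay above the lowest diseased mouse. The mean log2 ratio was 3.42 ± 0.25 in control and 3.67 ± 0.15 in diseased mice (SD, n = 3), a difference of 0.25 (exact two-sided permutation test, p = 0.2).

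Ncf1 encodes p47phox, the organiser that is phosphorylated on activation and carries the cytosolic complex to the membrane. It lies on chromosome 5 from 134220053 to 134229628 (minus strand). Control mice had 407, 385.1 and 404 CPM, and diseased mice had 390.5, 385.4 and 569.7 CPM. Diseased mouse 3 stood above all other mice, while the other two diseased mice lay within the control range. The log2 fold change of 0.17 ± 0.18 (SE, edgeR adjusted p = 0.746; 0.838-fold to 1.51-fold) rested on that mouse, and without it the log2 fold change was -0.04.

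Ncf4 encodes p40phox, which binds a phosphoinositide of the phagosome membrane, and lies on chromosome 15 from 78244164 to 78262582 (plus strand). Its values were 132.7, 98.2 and 153.4 CPM in control mice and 130.7, 103.5 and 148.2 CPM in diseased mice. The ranges of the groups nearly coincided. In edgeR's quasi-likelihood fit the log2 fold change came to -0.01 ± 0.21 (SE; adjusted p = 0.996), the smallest of the 7 genes in size, with an interval of 0.713-fold to 1.39-fold.

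Rac2 is the Rac GTPase of blood cells that switches the assembled oxidase on, and lies on chromosome 15 from 78559169 to 78572783 (minus strand). It was the steadiest of the 7 genes, with 288, 291 and 257 CPM in control mice and 295.7, 286 and 288 CPM in diseased mice, at most 1.15-fold between any 2 mice. edgeR's quasi-likelihood test put the log2 fold change at 0.06 ± 0.12 (SE), with an adjusted p of 0.876, and the 95% interval ran from 0.857-fold to 1.27-fold. Its widely expressed relative Rac1 had 401, 384 and 396 CPM in control mice and 377, 322 and 373 CPM in diseased mice. These groups did not overlap, and 11.4% of all genes tested were separated in this direction. Rac1 had a log2 fold change of -0.14 (edgeR adjusted p = 0.704), and Rap1a, a small GTPase that copurifies with the membrane part, had -0.15 (edgeR adjusted p = 0.692).

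Hvcn1 encodes the voltage-gated proton channel, which lets protons follow the electrons so that the oxidase can keep running, and lies on chromosome 5 from 122206805 to 122242297 (plus strand). It was the lowest of the 7 genes, with 45.2, 44.5 and 55.0 CPM in control mice and 47.2, 42.4 and 39.3 CPM in diseased mice. The groups overlapped, with the highest value in control mouse 3 and the lowest in diseased mouse 3. The fit gave a log2 fold change of -0.16 ± 0.14 (SE) and an adjusted p of 0.688 (edgeR, quasi-likelihood), and the 95% interval ran from 0.706-fold to 1.13-fold.

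Cybc1 encodes the chaperone also called EROS, which gp91phox and p22phox need to reach their full amounts, and lies on chromosome 11 from 121222588 to 121229309 (minus strand). Its values were 78.1, 61.9 and 114.2 CPM in control mice and 90.7, 80.01 and 99.9 CPM in diseased mice. Control mice held both the lowest and the highest value, a 1.85-fold range that was the widest of the 7 genes. In edgeR's quasi-likelihood fit the log2 fold change came to 0.09 ± 0.23 (SE; adjusted p = 0.901), and the 95% interval ran from 0.737-fold to 1.54-fold. Without control mouse 3 it was 0.36 (edgeR adjusted p = 0.38), the largest value that leaving out a mouse gave for any of the genes.

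**Figure D2:**
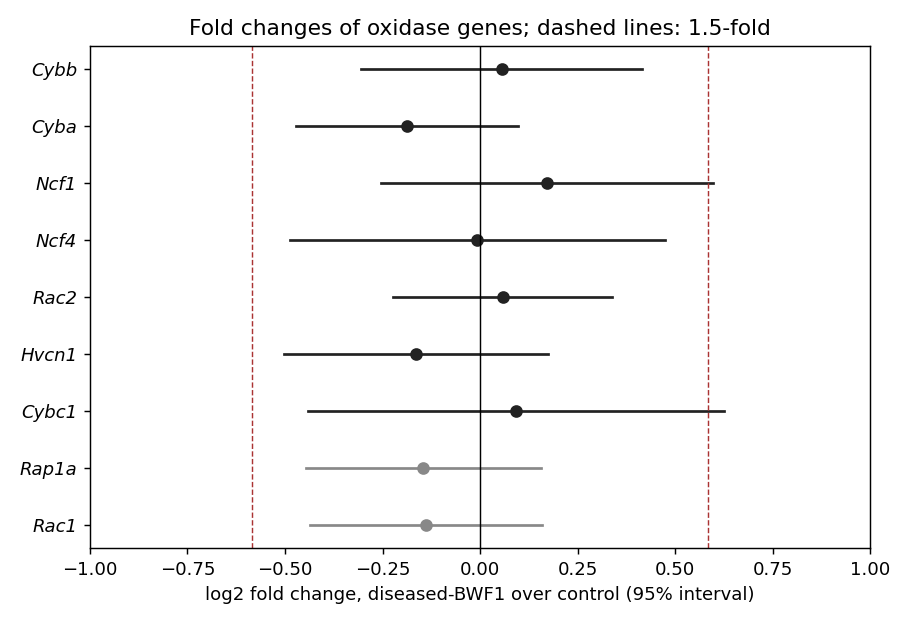
Fitted log2 fold change of diseased-BWF1 over control mice with its 95% interval, for the 7 oxidase genes (black) and for Rac1 and Rap1a (grey), with dashed lines at 1.5-fold. Each of the intervals shown crosses 0.

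Levels of different genes can be compared only per length, so each gene's CPM was divided by the length of the GENCODE transcript paired with its main RefSeq record, from 744 bases for Cyba to 4752 for Cybb. On this scale of CPM per kilobase the membrane subunits led, with means over the 6 mice of 696 for Cybb and 382 for Cyba. Ncf1 followed at 156, Rac2 at 93.5, Ncf4 at 87.3, Cybc1 at 36.2 and Hvcn1 at 16.3. Each gene stood above the next one in all 6 mice, except Rac2 and Ncf4, whose ranges overlapped and which kept this order in 4 of 6 mice. Cybb thus exceeded Cyba by 1.82-fold per length in the mean, far less than the difference in CPM. Short transcripts yield fewer fragments than their length predicts, and this was not corrected.

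**Figure D3:**
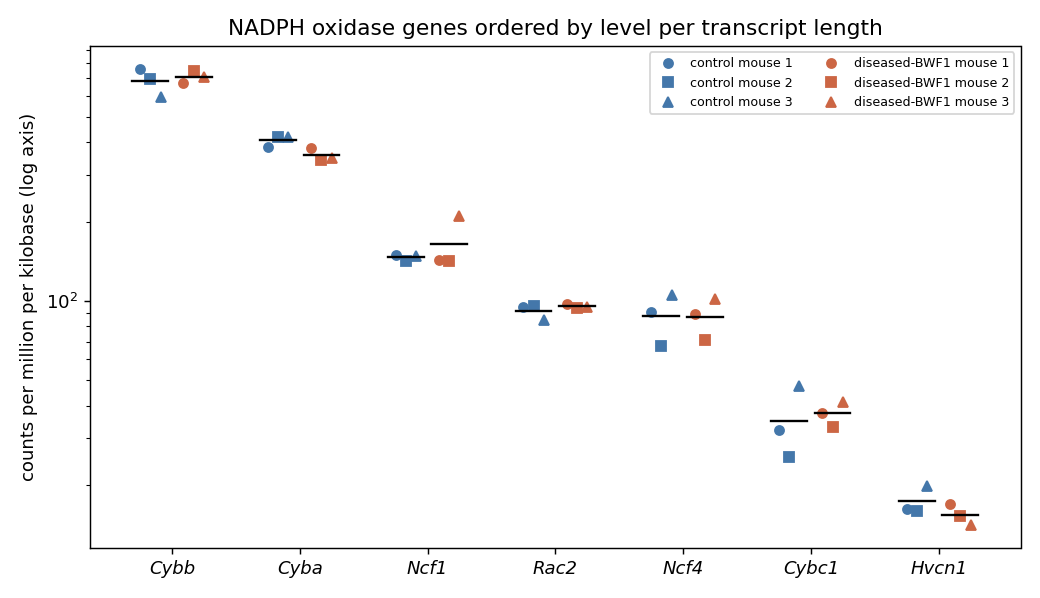
CPM per kilobase of transcript (log axis), 1 point per mouse, genes ordered by their mean and bars at the group means. The order is the same in both groups from Cybb down to Hvcn1, with Rac2 and Ncf4 overlapping.

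The 7 genes had 22 RefSeq records, of which 11 had counts in all 6 libraries. Rac2 has 1 record, and Cyba and Cybb had 98.6% or more and 95.7% or more of their counts on a single curated mRNA record in each mouse. Control mouse 3 had 4.29% of its Cybb counts on a predicted record that took at most 0.984% in the other mice. Ncf1 had 85.3% to 94.1% on NM_010876.4, and Ncf4 had 69.0% to 85.6% on NM_008677.2. The split was less even between mice for the low genes. NM_001042489.2 held 48.1% to 100% of the Hvcn1 counts, and NM_144832.2 held 43.5% to 77.4% of the Cybc1 counts. The counts of such records may be estimates that divide reads shared by the transcripts of a gene, so only sums per gene were tested. None of the 75-base sequences in GENCODE transcripts of the 7 genes occurs in a transcript of another gene on the same strand. Genes on the opposite strand overlap Cyba, Ncf1, Hvcn1 and Cybc1, and whether the counting used strand is not given in the sources used here.

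**Figure D4:**
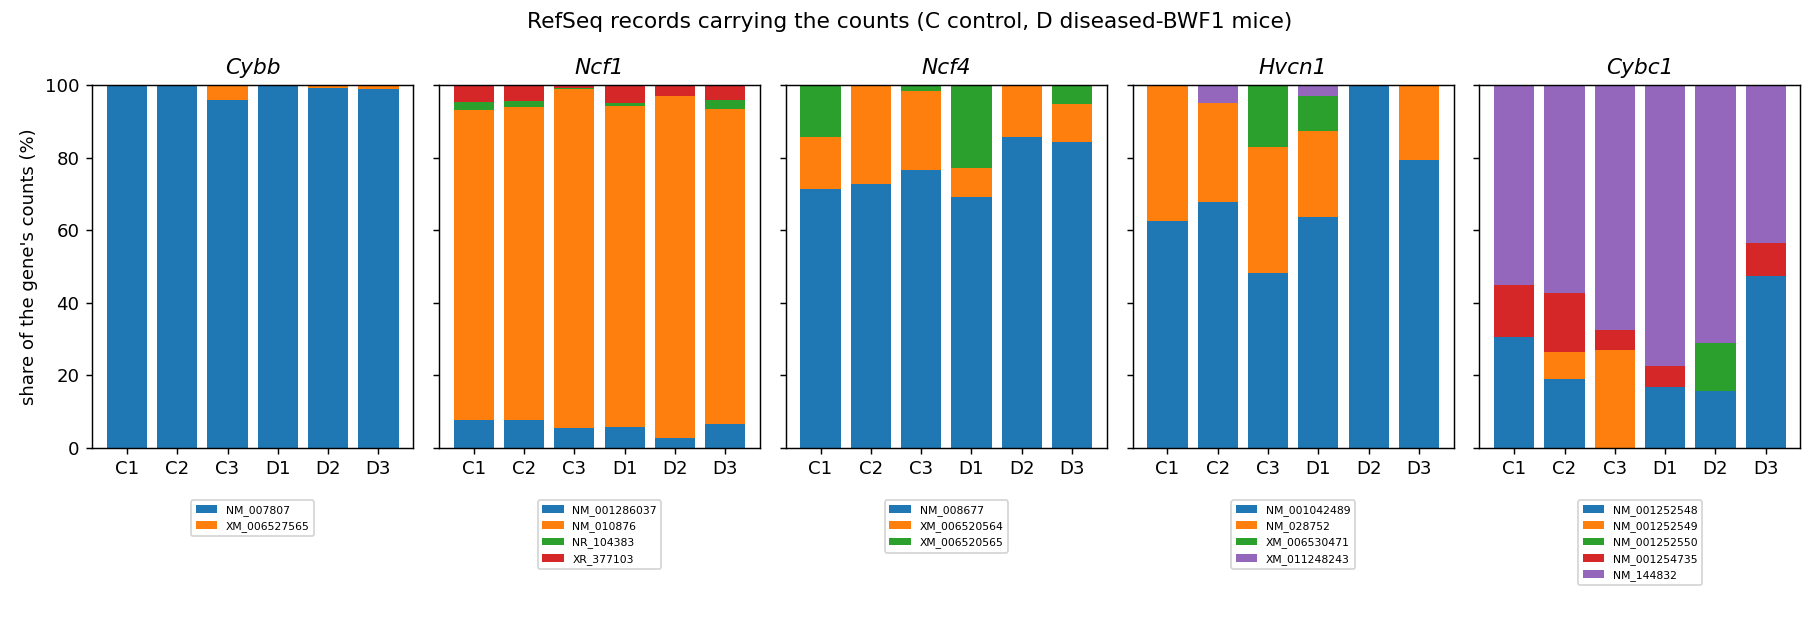
Share of a gene's counts (%) on each of its RefSeq records in control mice (C1 to C3) and diseased-BWF1 mice (D1 to D3), for Cybb, Ncf1, Ncf4, Hvcn1 and Cybc1. Cybb sits almost wholly on 1 record, while in Cybc1 the leading record takes 43.5% to 77.4%.

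Of 90 further genes in 5 lists around the oxidase, 74 passed the low-count filter. Of these, edgeR called 0, against 1.22% of all genes tested. It put 8 of the 74 at an unadjusted p under 0.05, against 13.2% of all genes. DESeq2 called 1 of the 74, Prdx1, against 3.54% of all genes. Neither count is above the share over all genes. Among the other oxidase and NOX family subunits, 3 of 12 were tested, and 8 had no counts in any library: Nox1, Nox3, Nox4, Noxa1, Duox1, Duox2, Duoxa1 and Duoxa2. Noxo1, the organiser of the epithelial oxidase, had 0 to 11 counts per mouse. Cybb was therefore the only catalytic NOX or DUOX gene detected at this depth.

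Signalling genes that act upstream of assembly numbered 27, all tested, with 14 fitted above 0 and 13 below and a median log2 fold change of 0.03. Prkcd, a protein kinase C that phosphorylates p47phox, had 232.3, 232.3 and 214.8 CPM against 284.7, 262.7 and 270.5 CPM, a log2 fold change of 0.27 (edgeR adjusted p = 0.391). For Prkcd every diseased mouse was above every control mouse. In this list 3 of 27 genes were so separated and 0 the other way, against 9.44% and 11.4% of all genes tested. Genes were named for the smallest p, which favours separated genes. Pak1, another p47phox kinase, had 9.50 to 15.0 CPM in control and 13.97 to 34.7 CPM in diseased mice, a log2 fold change of 0.88 (edgeR adjusted p = 0.341).

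Of 13 transcription factors known to act on oxidase genes, 10 were tested, with a median log2 fold change of 0.04. Nfkb1, an NF-κB subunit, had a log2 fold change of 0.31 (edgeR adjusted p = 0.424), and its groups did not overlap. It was the 1 gene of the 10 with all diseased mice above all control mice, near the 9.44% of all genes tested. In 0 of the 10 all diseased mice were below. Cebpb had 471, 404 and 125.8 CPM in control and 653, 798 and 414 CPM in diseased mice, a log2 fold change of 0.90 ± 0.47 (SE, edgeR adjusted p = 0.481), with control mouse 3 far below the other mice. Cebpa had a log2 fold change of 0.30 (edgeR adjusted p = 0.498).

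The antioxidant and NRF2 list held genes that dispose of oxidants, but also regulators such as Nfe2l2 and Keap1. It also held Mpo, which had no counts. Of its 27 genes 23 were tested, and 16 were fitted below 0 and 7 above, with a median log2 fold change of -0.07. In 5 of the 23, all diseased mice were below all control mice, and in 0 all were above, where 11.4% and 9.44% of all genes tested were so separated. Prdx1, a peroxiredoxin that removes hydrogen peroxide, had 201.6, 198.1 and 231.5 CPM in control and 122.7, 134.2 and 143.2 CPM in diseased mice. The groups were well apart, with a log2 fold change of -0.66 ± 0.13 (SE). The adjusted p was 0.0716 in edgeR's quasi-likelihood test, which missed the threshold, and 0.000966 in DESeq2, which passed it. Srxn1, the sulfiredoxin that restores over-oxidised peroxiredoxins, had 28.5, 25.2 and 24.9 CPM against 14.2, 17.3 and 18.7 CPM, a log2 fold change of -0.65 (edgeR adjusted p = 0.149). Cat, catalase, had 139.6, 140.8 and 193.2 CPM against 108.5, 97.1 and 118.1 CPM, a log2 fold change of -0.55 (edgeR adjusted p = 0.219).

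Enzymes that supply cytosolic NADPH, the fuel of the oxidase, numbered 11, all tested, with 7 fitted below 0 and a median log2 fold change of -0.10. Idh1, the cytosolic isocitrate dehydrogenase, had 446, 503 and 375 CPM in control and 325, 254 and 324 CPM in diseased mice, a log2 fold change of -0.55 ± 0.17 (SE, edgeR adjusted p = 0.219). Taldo1, transaldolase of the pentose phosphate pathway, had a log2 fold change of -0.21 (edgeR adjusted p = 0.564). Me1, malic enzyme, had only 3 to 20 counts per mouse and a log2 fold change of -0.81 (edgeR adjusted p = 0.544). For these 3 of the 11 genes all diseased mice lay below all control mice, and for 0 all lay above. Of all genes tested, 11.4% and 9.44% were so separated. The 3 were named for the smallest p in the list, which favours separated genes, and none was called.

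**Figure D5:**
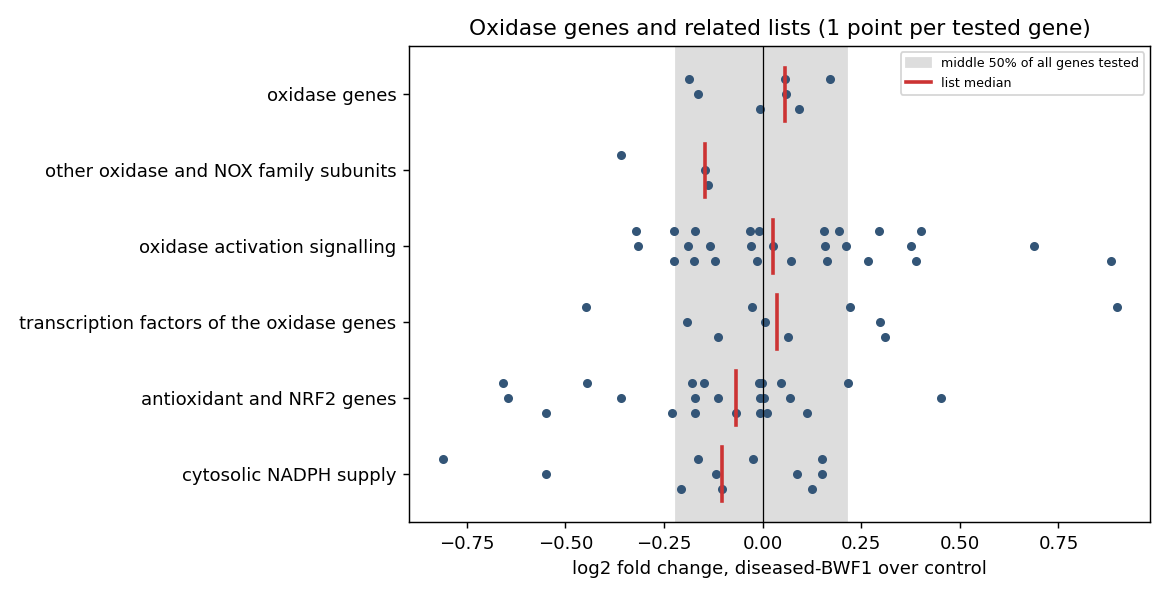
Log2 fold change of diseased-BWF1 over control mice for each tested gene (points) of the oxidase set and of 5 related lists, with the list median in red and the middle 50% of all tested genes (-0.22 to 0.21) in grey. All 7 oxidase genes fall within the grey band, while Prdx1, Srxn1 and Cat form the low end of the antioxidant list.

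Other cells that use this oxidase were nearly absent from the libraries by their markers. Neutrophils express it most strongly, and Ly6g, Mpo and Retnlg had no counts and S100a9 at most 2 counts in any mouse. The 14 neutrophil markers summed to 345.4 to 349.5 CPM in control and 233.6 to 340.5 CPM in diseased mice, nearly all from Csf3r, a receptor gene with 200 to 335 CPM. The 12 B cell markers summed to 5.97 to 8.48 CPM in control and 3.16 to 4.801 CPM in diseased mice, with Vpreb3 at 0, and 7 of 9 T cell markers found in the files summed to 1.22 to 6.51 and 1.33 to 3.75 CPM. Of the eosinophil and mast cell list, 7 of 11 were at 0, and the list summed to at most 3.91 CPM in control and 4.25 CPM in diseased mice. The 7 mesothelial markers summed to at most 0.652 CPM. The 10 genes of the monocyte and small peritoneal macrophage list summed to 43203 to 67092 CPM in control and 65106 to 69434 CPM in diseased mice, almost all from Fn1, which resident macrophages also make. In that list Cd209a was called lower, while Ly6c2 had at most 1 count. The part of these monocyte-type genes in the oxidase values was not tested.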

How the data were processed

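The authors deposited 1 file per mouse with raw counts on 107193 RefSeq transcript records, whole numbers with no normalization. The submitters' processing notes name Salmon 0.8.0, DESeq2 and the build GRCm38.p6 without their roles, so the counts may be rounded estimates. Records were matched to genes of the RefSeq table of GRCm38.p6 (45754 with the same version, 40712 by accession) and summed per gene, and 20727 unmatched records were left out. Groups were compared in R 4.3.3 with edgeR 4.0.16 (filterByExpr, TMM, glmQLFit, glmQLFTest, no covariate) and Benjamini-Hochberg adjustment over 10505 genes. DESeq2 1.42.0, other scalings and filters, a replicate block, age as covariate, curated records alone and each mouse left out in turn were alternatives. Exact permutation tests used scipy 1.17.1. Intervals are 95% and follow from the fit. The code was tested on simulated data. Nothing in the sources used here says that same-numbered mice were paired. The p-values judge the difference between groups against the spread between mice.

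The 7 genes and the lists were chosen with earlier results of these data known. Named from each list were genes called by edgeR and otherwise the 3 with the smallest p. Named as most like Cybb and Cyba were the 3 genes with the smallest root mean square distance of centred log2 CPM (prior count 2). Some genes that these rules name are not reported here.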

Additional observations from a re-analysis of the deposited data

How the results depend on the processing

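None of the 7 oxidase genes was called under any of the 14 alternatives tried for each (98 values, smallest adjusted p 0.38). The sign stayed as reported for Cyba (-0.24 to -0.14), Rac2 (0.00392 to 0.10) and Hvcn1 (-0.24 to -0.06) on the log2 scale. It turned in 11 of the 98 values, each at most 0.141 in size. Of these, Ncf4 gave 0.0015 with DESeq2, 0.00149 with DESeq2 size factors in edgeR, 0.0383 with library totals, 0.000622 with the replicate block and 0.11 with curated records alone. Leaving out 1 mouse at a time gave -0.04 to 0.14 for Cybb (-0.0353 without control mouse 3), -0.04 to 0.27 for Ncf1 (-0.0396 without diseased mouse 3), -0.16 to 0.14 for Ncf4 (above 0 without control mouse 1 or 3 or diseased mouse 2), and -0.08 to 0.36 for Cybc1 (-0.0837 without control mouse 2). The cause was not tested. The log2 Cybb to Cyba ratio difference kept its sign, from 0.13 to 0.38.

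The number of genes called over the whole table moved more: 128 became 372 with DESeq2, 259 without the filter, 84 with at least 10 counts in every library, 38 with the replicate block, 16 with curated records alone, and 21 to 51 with 1 mouse left out (41, 21 and 39 without control mice 1 to 3, and 24, 51 and 50 without diseased mice 1 to 3). Of the 5 lists, DESeq2 called 1 gene, edgeR 0. The deviations of same-numbered mice from their group means correlated at 0.117, 0.00556 and 0.157. Those of mice with unlike numbers correlated at -0.144 to 0.0573, so 0.117 and 0.157 were the highest values. The sources used here name no pairing, and the numbers were not taken as pairs in the main fit. The replicate block changed no call of an oxidase gene. With 3 mice a group, the intervals of Ncf1 and Cybc1 reach past 1.5-fold.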

Other observations

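Over the 6 libraries, the tested genes whose centred log2 CPM lay closest to Cybb were Kif3b (root mean square distance 0.018), Yy1 (0.027) and Mfsd14b (0.038), where the median of the 10504 other genes was 0.287. Close to Cyba were Josd2 (0.032) and Psmb7 (0.034), with a median of 0.282. Nothing is read from this about shared function. Within the oxidase, Rac2 was the gene closest to Cybb (0.082, 108th of 10504) and Hvcn1 the closest to Cyba (0.099, 281st), while Cybb and Cyba lay 0.209 apart, 2892nd in the order from Cybb.

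A further pair of ratios within libraries was computed after the values had been seen. There were 0.718, 0.757 and 0.649 Rac2 counts per Rac1 count in control mice and 0.784, 0.886 and 0.773 in diseased mice, so that the groups did not overlap (difference of mean log2 ratios 0.20, exact permutation p = 0.1, which is the lowest value possible here). For Ncf1 over Ncf4 the ratio was 3.07, 3.92 and 2.63 in control and 2.99, 3.72 and 3.85 in diseased mice, with overlapping groups (exact permutation p = 0.7).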
